A study of Mus musculus with 25 samples.

Results

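Ebf1 shRNA was tested in induced macrophages, which the study made by converting a mouse pre-B cell line. The comparison holds 4 of the study's 25 array samples: both samples titled as Ebf1 knockdown and both macrophage samples titled as scramble, with every annotated probe set. The study profiled engineered and native mouse cells in 10 groups, which also include induced hepatocytes, liver and colon. It used Affymetrix Mouse 430 2.0 arrays, which read RNA by hybridisation to short oligonucleotides.

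The Ebf1 shRNA group (n = 2 arrays) consisted of C10 cells that took up lentiviral shRNA against Ebf1, were selected with puromycin for 2 days and were then converted to macrophages. The scramble group (n = 2 arrays) received a scrambled shRNA with the same puromycin selection before conversion. The scramble labels state that conversion used 100 nM estradiol with IL-3 and CSF-1 at 10 nM, and the labels of the shRNA groups against a gene name conversion without its conditions. A further group of C10 macrophages carried Pou2af1 shRNA (n = 2 arrays) and entered the same model. By their labels, all 3 groups shared the parental line, lentiviral transduction and puromycin, and each array received 100 ng of total RNA. The labels do not say whether the replicates were separate cultures, and all p-values here rest on the spread between these samples alone, which may be technical. They also do not say how many hairpins were used per gene, and the hairpin sequences were not analysed here.

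Ebf1 is a DNA-binding factor of the early B lineage that, with E2A and Pax5, switches on the genes of the pre-B cell receptor and holds back those of other blood lineages. In C10 cells estradiol releases a fusion of C/EBPα, a myeloid master regulator, which turns the cells into macrophage-like cells within days. The macrophage program that follows includes surface receptors, lysosomal enzymes, chemokines and genes induced by type I interferon, the antiviral cytokine that macrophages both make and sense.

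Levels are log2 signals per array, so a difference of 1 is a 2-fold change, and a level of 1 probe set was not set against that of another. A gene was called where the limma adjusted p (Benjamini-Hochberg) was under 0.05, and "rose" or "fell" is used for called genes alone. The 40th percentile of an array, 5.57 to 5.60 in these arrays, was taken as the edge of background. Genes above it in at least 2 of the 6 macrophage arrays were tested. A gene under it with scramble shRNA was thus tested only through another group, and counts of genes that rose include such genes. Counts of genes that fell likewise include genes under it with Ebf1 shRNA. Between arrays of the same group the signals correlated over genes at 0.991 to 0.993, and between Ebf1 shRNA and scramble arrays at 0.972 to 0.973. Of 12 macrophage markers, 10 lay above the edge in the Ebf1 shRNA arrays and the same 10 in the scramble arrays, whereas Adgre1 and Mertk did not. Their summed signal was 16.34 in both Ebf1 shRNA arrays and 16.06 in both scramble arrays on the log2 scale. Of 8 B cell markers with a probe set, 7 stayed above the edge in both groups. The other, Rag1, which cuts antigen receptor genes, was at 5.85 and 4.92 with Ebf1 shRNA, against 3.26 and 3.17 with scramble shRNA, and lay above the edge in 1 Ebf1 shRNA array alone, so it was not tested. The cells thus carried macrophage RNA with remaining pre-B RNA, and in such bulk samples fewer cells of a type and less RNA per cell cannot be told apart.

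Ebf1 itself was at 7.41 and 7.21 with Ebf1 shRNA, against 8.31 and 8.38 with scramble shRNA. Both Ebf1 shRNA arrays were below both scramble arrays, and Ebf1 fell by 1.04 ± 0.11 (log2 fold change ± SE, limma adjusted p = 0.00389). That call ended when all 25 arrays were fitted in 1 model or a log2 change of 0.5 was required. Of the 5 Ebf1 probe sets, 4 fell when each was tested on its own, by 1.04 to 1.20. The other one read 5.83 and 5.74, against 5.27 and 5.68, close to background, and was not called (limma adjusted p = 0.402). Ebf3, a relative of Ebf1, stood at −0.14 and was not called. In the arrays labelled Pou2af1 shRNA, the chosen Ebf1 probe set read 8.20 and 8.34, overlapping the scramble arrays. Each of the other Ebf1 probe sets was higher in both of those arrays than in both scramble arrays. One of them read 8.75 and 8.59, against 8.43 and 8.42 with scramble shRNA.

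Of 12484 genes tested, 775 rose and 1019 fell with Ebf1 shRNA, together 14.4% of the genes (6.21% higher and 8.16% lower), with a median of −0.04 over all genes. Every list count below is to be read beside these shares. Centring each array on its median turned this split to 941 and 660. Large changes were mostly increases: 271 genes rose by more than 1 and 67 by more than 2 on the log2 scale, against 139 and 2 genes that fell by as much. The median size was 0.81 among genes that rose and −0.64 among genes that fell. The Ebf1 shRNA arrays did not overlap the scramble arrays in 59.9% of all genes tested, so non-overlap alone says little for a gene. Statements of non-overlap below only describe the values, and the 20 highest and 20 lowest genes were chosen for it. With Ebf1 shRNA replicate 1 or 2 left out, 852 genes were called in each case, and with scramble replicate 1 or 2 left out, 492 and 615. In all 4 fits with an array left out, 258 genes remained called higher and 122 lower, and the called genes described below are among them unless a value without an array is given. Fitting all 25 arrays in 1 model left 475 calls, and requiring a log2 change of at least 0.5 left 236. These 2 settings ended 83 and 79 calls among the 306 values of named genes, called or not, and those genes are not marked one by one.

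**Figure D1:**
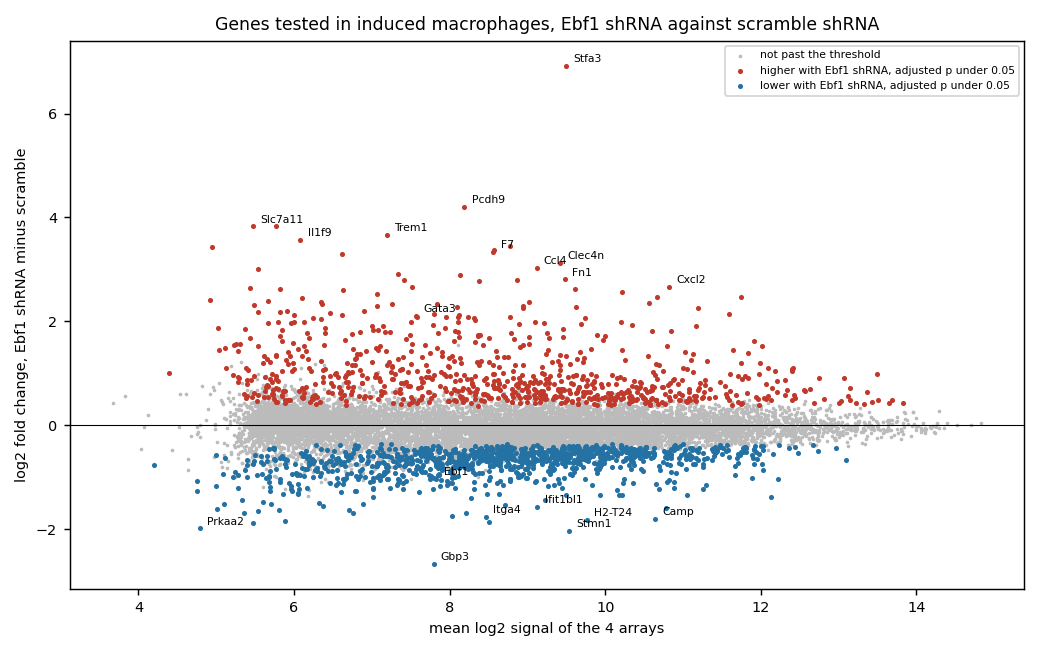
Each point is a gene tested, with its mean log2 signal over the 4 arrays on the horizontal axis and the log2 fold change, Ebf1 shRNA minus scramble, on the vertical axis. Red points are the 775 genes that rose and blue points the 1019 that fell; Stfa3 stands alone at 6.92, and 2 genes fell by more than 2.

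The cysteine protease inhibitor Stfa3 was at 12.94 and 12.99 with Ebf1 shRNA, against 6.11 and 5.96 with scramble shRNA, a rise of 6.92 ± 0.17 (limma adjusted p = 9.2e-05). It was close to background in the scramble arrays and among the brightest signals in the Ebf1 shRNA arrays. Stefin A genes are near-identical copies, and the part of relatives in this signal was not tested. The protocadherin Pcdh9 was at 10.26 and 10.32, against 6.13 and 6.05. The other genes among the 20 highest were Mansc1, Slc7a11, Trem1, Il1f9, Fpr2, Dock4, Pf4, F7, Itga8, Clec4n, Ccl4, Hepacam2, Kcnn3, Aqp9, Fn1, Ms4a8a, Plagl1 and Msr1, with log2 fold changes of 3.84 down to 2.77. Of these, Mansc1, Slc7a11, Trem1, Il1f9, Dock4 and Hepacam2 were under the edge of background in the scramble arrays, so their folds are limited by the background of the probe set. Several encode secreted or surface proteins: F7 is coagulation factor VII, Fn1 is fibronectin, Fpr2 is a receptor for formylated bacterial peptides, and Aqp9 carries water and glycerol.

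The 20 lowest genes were led by Gbp3, at 6.52 and 6.40 with Ebf1 shRNA, against 9.24 and 9.01 with scramble shRNA (−2.67 ± 0.12, limma adjusted p = 0.000235). Of the others, Gbp2, Gbp7, Cmpk2 and Ifit1bl1 are genes that interferon is known to induce. The remainder were the class I-like gene H2-T24, Stmn1, Prkaa2, Il17rd, Dusp15, Camp, Itga4, Rttn, Tmcc3, Ovgp1, Dock9, Map9, Rab11fip2, Cth and Pmaip1 and lay between −2.03 and −1.54. Of the 3 Dock9 probe sets, 2 fell when each was tested on its own, and they ranged from −1.64 to 0.09. Prkaa2, Il17rd, Dusp15, Ovgp1, Dock9 and Rab11fip2 were under the edge of background in the Ebf1 shRNA arrays. Leaving out an array ended 4 of these calls. Rttn ended without Ebf1 shRNA replicate 2 (−1.61) or scramble replicate 1 (−1.36), and Rab11fip2 without Ebf1 shRNA replicate 2 (−1.52). Map9 ended without Ebf1 shRNA replicate 1 (−1.47), scramble replicate 1 (−1.57) or scramble replicate 2 (−1.71). The call of Dusp15 did not survive the loss of any of the 4 arrays (−1.92 and −1.79 without an Ebf1 shRNA array, −1.95 and −1.76 without a scramble array).

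**Figure D2:**
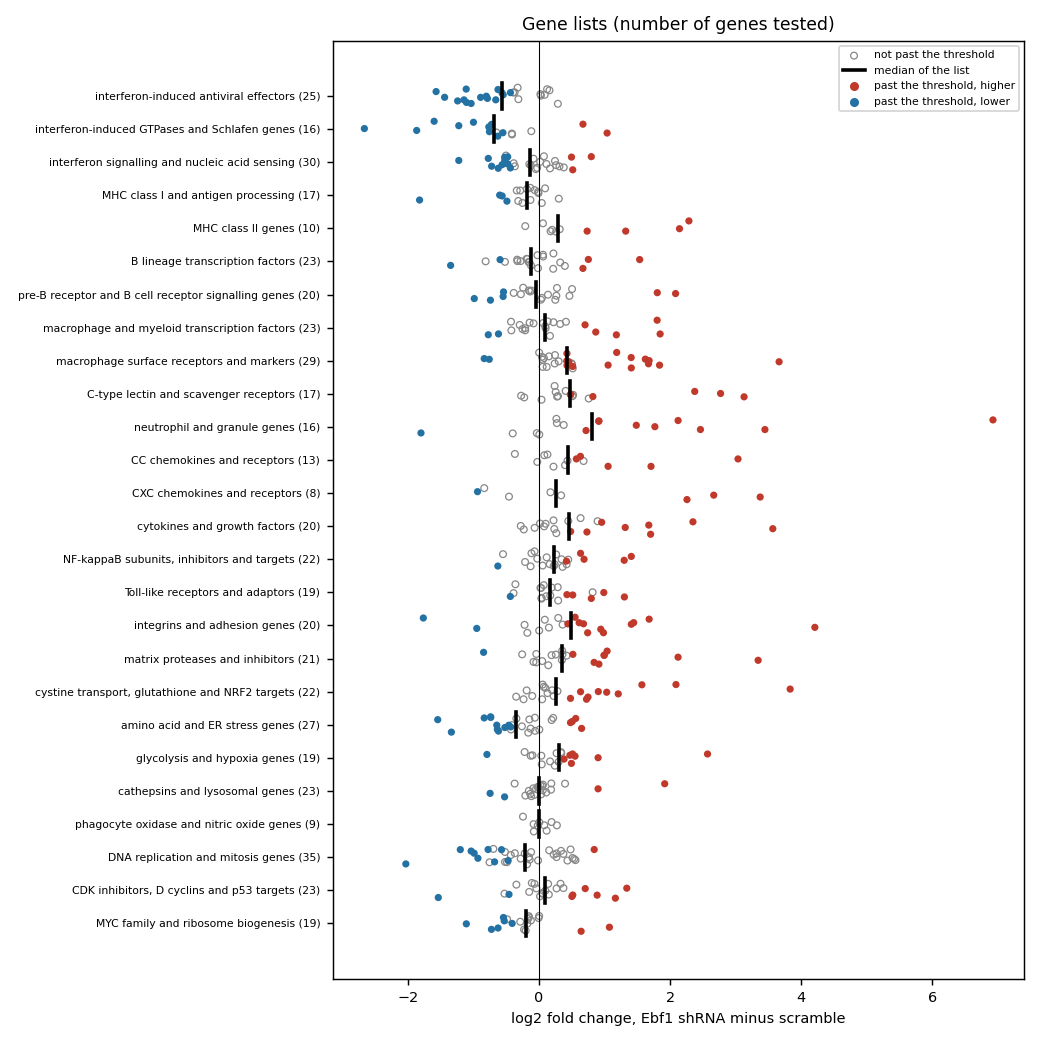
Log2 fold changes, Ebf1 shRNA minus scramble, of the tested members of 26 gene lists, 1 point per gene, with a black bar at each list's median. Filled points passed the threshold; the interferon lists lie mostly to the left of 0 and the receptor, granule, cytokine and integrin lists mostly to the right.

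Interferon-induced genes were lower with Ebf1 shRNA. Of 25 antiviral effector genes tested, 15 fell and 0 rose, with a median of −0.57. Ifit3, which helps block translation of viral RNA, was at 8.59 and 8.40 with Ebf1 shRNA, against 10.06 and 9.81 with scramble shRNA (−1.44 ± 0.13, limma adjusted p = 0.00183). The antiviral enzyme gene Rsad2 was at 11.67 and 11.74, against 12.74 and 12.74 (−1.04 ± 0.09), and Mx2, a GTPase that restricts viruses, at 7.87 and 7.89, against 9.01 and 9.04 (−1.15 ± 0.09). The groups did not overlap for any of the 3, and the nucleic acid sensor gene Zbp1 (−1.11), Ifit2 (−1.24), Ifit1 (−1.11), Mx1 (−0.89) and Oasl1 (−0.81) also fell. The membrane-active Ifitm genes did not follow: Ifitm1, Ifitm2, Ifitm3 and Ifitm6 stood at 0.03 to 0.16 and were not called, nor were the RNA-editing enzyme Adar (−0.40) or the kinase Eif2ak2 (−0.32). Tested on its own, 1 of 3 Eif2ak2 probe sets fell. The count of effectors that fell was 11 without Ebf1 shRNA replicate 1, 12 without Ebf1 shRNA replicate 2, and 9 without scramble replicate 1 or 2.

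The interferon-induced GTPases and the Schlafen genes, which act against intracellular pathogens and in growth control, divided. Of 16 tested, 10 fell and 2 rose, with a median of −0.69. The guanylate-binding proteins showed the largest decreases of the list: beside Gbp3, Gbp2 was at 7.56 and 7.58, against 9.64 and 9.23, and Gbp7 at 9.96 and 10.00, against 11.67 and 11.49. All 3 were lower in both Ebf1 shRNA arrays than in either scramble array, but Gbp genes are close copies and the chosen Gbp2 probe set is one that can match several transcripts. The immunity-related GTPases Irgm2 and Irgm1 fell by 1.00 and 0.77, while Gbp6 (−0.42) and Iigp1 (−0.65) were not called. Within the Schlafen family Slfn4 was at 12.97 and 12.88, against 11.88 and 11.90, and rose by 1.04 ± 0.11. Slfn1 rose by 0.67, a call that ended without Ebf1 shRNA replicate 1 or 2 (0.67 in both cases) or scramble replicate 1 (0.52), or with probe sets averaged (0.28). Slfn3 fell by 1.23, a call that ended without scramble replicate 1 (−1.18) or 2 (−1.27). The count of GTPase and Schlafen genes that fell was 8, 7, 5 and 6 without Ebf1 shRNA replicate 1, Ebf1 shRNA replicate 2, scramble replicate 1 and scramble replicate 2.

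Interferon acts through a short element, the interferon-stimulated response element (ISRE), bound by STAT and IRF proteins. Promoter windows are shown for Ifit3, Ifit1, Rsad2 and Gbp3, genes that fell and whose windows held a match. They are not a ranking by size, since Ifit2 (−1.24) and Mx2 (−1.15) fell more than Ifit1 and Rsad2. RefSeq promoters of GRCm38.p6 were searched on both strands in the 250 bases before each gene's start for GAAA, 2 bases of any kind and GAAA, and 3.04% of 27025 genes held a match. Among antiviral effectors with a promoter, 6 of 11 that fell (54.5%) and 2 of 9 that were not called (22.2%) held it. Among GTPase and Schlafen genes, 8 of 10 that fell (80%) held it, among them Gbp2, Gbp3, Gbp7, Irgm1 and Irgm2, and so did 1 of 2 that were not called (50%) and 0 of 2 that rose. In the list of interferon signalling and nucleic acid sensing, 2 of 10 that fell (20%), 2 of 14 that were not called (14.3%) and 0 of 2 that rose held it. A match was in 2.61% of the genes tested with a promoter, in 4.39% of 820 that fell and in 2.15% of 606 that rose. Below, the 170 bases before the start are given 5′ to 3′ on the gene's strand, with matches in capitals (TTTC, 2 bases and TTTC is the same element on the other strand). They lie at chr19:34583359-34583528 (+) for Ifit3, chr19:34640719-34640888 (+) for Ifit1, chr12:26456453-26456622 (−) for Rsad2 and chr3:142559874-142560043 (+) for Gbp3. A match is a description of the letters, not evidence of binding.
Ifit3: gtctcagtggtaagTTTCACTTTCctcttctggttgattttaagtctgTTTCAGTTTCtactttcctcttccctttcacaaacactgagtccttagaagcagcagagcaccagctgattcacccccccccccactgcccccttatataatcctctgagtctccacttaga
Ifit1: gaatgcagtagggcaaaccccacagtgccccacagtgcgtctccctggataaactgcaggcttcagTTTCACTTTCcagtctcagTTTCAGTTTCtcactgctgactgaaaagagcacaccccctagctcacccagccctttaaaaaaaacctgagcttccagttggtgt
Rsad2: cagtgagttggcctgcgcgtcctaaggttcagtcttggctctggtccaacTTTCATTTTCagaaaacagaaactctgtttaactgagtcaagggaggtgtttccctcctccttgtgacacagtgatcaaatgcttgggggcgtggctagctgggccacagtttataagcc
Gbp3: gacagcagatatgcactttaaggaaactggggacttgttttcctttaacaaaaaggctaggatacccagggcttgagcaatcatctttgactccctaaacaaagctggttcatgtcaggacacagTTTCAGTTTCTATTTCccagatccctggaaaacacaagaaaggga

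Of the genes that sense nucleic acids or carry the interferon signal, 11 of 30 fell and 3 rose, with a median of −0.14. Usp18, which damps the interferon receptor, was at 10.62 and 10.66 with Ebf1 shRNA, against 11.92 and 11.82 with scramble shRNA (−1.23 ± 0.10). Irf8, a factor of monocyte development, was at 10.43 and 10.46, against 11.25 and 11.20 (−0.78 ± 0.10). Both genes were lower in each Ebf1 shRNA array and stayed called in all 4 fits with an array left out, which no other decrease of the list did. Ifnb1, which encodes interferon beta, was at 5.09 and 5.35, under the edge of background, against 5.75 and 5.82, and fell by 0.56. That call ended without Ebf1 shRNA replicate 1 (−0.43), scramble replicate 1 (−0.60) or scramble replicate 2 (−0.53). The receptor chains Ifnar1 (0.26) and Ifnar2 (0.38) and the transcription factor genes Irf1 (0.02) and Irf3 (−0.13) were not called. Tlr7, which encodes a receptor for single-stranded RNA, rose by 0.80 ± 0.10. The count that fell was 3, 4, 2 and 4 without Ebf1 shRNA replicate 1, Ebf1 shRNA replicate 2, scramble replicate 1 and scramble replicate 2.

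**Figure D3:**
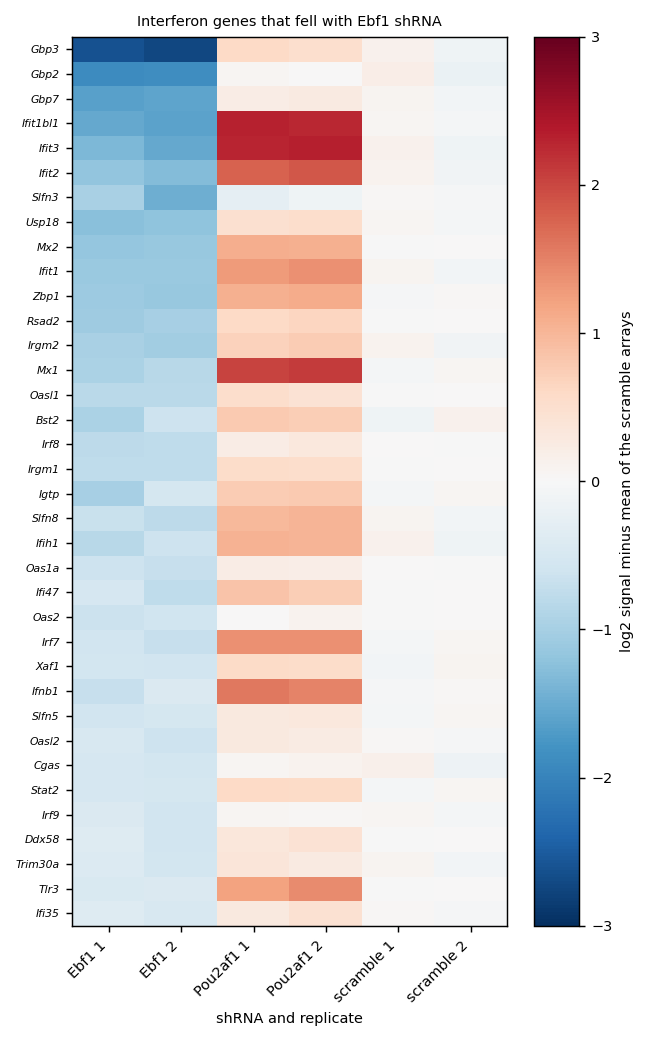
Log2 signal of the 36 genes of the 3 interferon lists that fell with Ebf1 shRNA, as the difference from the mean of the scramble arrays, for each of 6 arrays. The Ebf1 shRNA columns are blue throughout because the genes were chosen for it; the columns labelled Pou2af1 shRNA are mostly red.

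Among the p200, Ms4a and related genes, 3 of 14 rose and 2 fell, beside 6.21% and 8.16% of all genes. The 2 that fell were Ms4a4d (−1.07) and Ifi204 (−0.51). Ms4a4d stood at −1.09 without scramble replicate 1 and −1.05 without scramble replicate 2. Without any 1 array Ifi204 stood at −0.54 to −0.49. Ms4a6c was at 8.95 and 8.80 with Ebf1 shRNA, against 6.92 and 6.54 with scramble shRNA, and Ms4a6b at 7.73 and 7.62, against 5.83 and 5.26. Both membrane protein genes were higher in each Ebf1 shRNA array (2.15 ± 0.15 and 2.13 ± 0.20), whereas Ifi203 (0.21) and Ly6e (−0.12) were not called. Of the 2 Ms4a6c probe sets, only 1 rose when tested on its own, and the other stood at 0.02. Most antigen presentation genes were not called. Of 17 class I and antigen processing genes, 4 fell and 0 rose: H2-T24 was at 8.83 and 8.87, against 10.64 and 10.71, while the classical gene H2-K1 (0.04), its partner B2m (−0.01) and the peptide transporter Tap1 (0.09) were not called. Without 1 array the class I count was 1 without Ebf1 shRNA replicate 1, scramble replicate 1 or scramble replicate 2 and 2 without Ebf1 shRNA replicate 2, with H2-T24 called each time.

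Of 10 class II genes, 4 rose and 0 fell, with a median of 0.29. The invariant chain gene Cd74, which chaperones class II molecules, was at 12.63 and 12.70 with Ebf1 shRNA, against 10.32 and 10.73 with scramble shRNA (2.14 ± 0.15, limma adjusted p = 0.000946). The beta chain gene H2-Eb1 was at 9.20 and 9.27, against 7.0 and 6.90 (2.29 ± 0.10). Both were clear of the scramble arrays. The peptide-exchange regulators H2-Ob and H2-Oa rose by 1.32 and 0.73. The H2-Ob call ended without scramble replicate 1 (1.32), and the H2-Oa call without Ebf1 shRNA replicate 1 (0.69), Ebf1 shRNA replicate 2 (0.78) or scramble replicate 2 (0.50). The class II transactivator gene Ciita (0.31) and the chain gene H2-Ab1 (0.26) were not called.

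Most B lineage transcription factor genes were not called. Of 23 tested, 3 rose and 2 fell, with a median of −0.12, beside 6.21% and 8.16% of all genes, and 1 gene of the list had no probe set. Lef1, a Wnt-responsive factor of pro-B cells, was at 8.99 and 8.64 with Ebf1 shRNA, against 10.22 and 10.11 with scramble shRNA, and fell by 1.35 ± 0.14 (limma adjusted p = 0.00318). Sox4, needed for early B cell survival, was at 6.88 and 6.90, against 5.10 and 5.61, and rose by 1.53 ± 0.19. The groups did not overlap for either gene. Pax5, which seals B cell identity and is a known target of Ebf1, was at 6.60 and 6.69, against 7.08 and 7.85, and was not called (−0.82 ± 0.26, limma adjusted p = 0.0864), with the scramble arrays far apart. The coactivator gene Pou2af1 rose by 0.75 and Ets1 by 0.67, and Myb, a factor of progenitor growth, fell by 0.60. These 3 calls depended on the arrays. Pou2af1 ended without Ebf1 shRNA replicate 1 (0.66), scramble replicate 1 (0.85) or scramble replicate 2 (0.66), and Ets1 without the same arrays (0.62, 0.75 and 0.59). Myb ended without any of the 4 (−0.70 and −0.49 without an Ebf1 shRNA array, −0.50 and −0.69 without a scramble array). The other 18 regulators were not called and lay between −0.82 and 0.39: Pax5, Spib, Foxo1, Ikzf1, Tcf4, Bcl6, Erg, Ikzf3, Xbp1, Bach2, Irf4, Tcf12, Mef2c, Prdm1, Bcl11a, Runx1, Tcf3 and Pou2f2. Tcf3, which encodes E2A, stood at −0.03. Tested on their own, 2 of 4 Foxo1 and 1 of 4 Xbp1 probe sets rose, and 1 of 6 Tcf4 probe sets fell.

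Of 20 genes of the pre-B receptor and B cell receptor signalling, 2 rose and 4 fell, with a median of −0.04 that turned to 0.04 with centred arrays. Il7r, the receptor chain for interleukin 7, was at 9.16 and 9.13 with Ebf1 shRNA, against 7.14 and 6.98 with scramble shRNA (2.08 ± 0.10), and Fcrla, an intracellular Fc receptor-like gene, at 7.96 and 8.17, against 6.10 and 6.44 (1.80 ± 0.15). The surrogate light chain genes, whose proteins pair with the heavy chain before a light chain is made, were lower: Vpreb1 was at 8.10 and 8.67, against 9.55 and 9.19, and Igll1 at 7.30 and 7.76, against 8.33 and 8.21. Both fell (−0.99 ± 0.21 and −0.74 ± 0.16), with Ebf1 shRNA replicate 1 the lowest array for each. The Igll1 call ended at −0.29 when probe sets shared between transcripts were left out and at −0.52 when probe sets were averaged. The signal chain genes Cd79a (0.25) and Cd79b (−0.16) and the heavy chain gene Ighm (−0.28) were not called. Tested on its own, 1 of 6 Ighm probe sets fell. The decreases of the adaptor Blnk (−0.54) and the coreceptor Cd72 (−0.55) were small. No decrease of the list was called in every fit with an array left out. Vpreb1 ended without Ebf1 shRNA replicate 1 (−0.70), scramble replicate 1 (−0.81) or scramble replicate 2 (−1.17), and Igll1 without the same arrays (−0.52, −0.68 and −0.80). Cd72 ended without Ebf1 shRNA replicate 2 (−0.41), scramble replicate 1 (−0.50) or scramble replicate 2 (−0.60). Blnk ended without any 1 array (−0.56 and −0.53 without an Ebf1 shRNA array, −0.52 and −0.57 without a scramble array). The summed signal of the 8 B cell markers was 12.70 and 12.78 with Ebf1 shRNA, against 12.89 and 12.98 with scramble shRNA on the log2 scale; its part in these values was not tested.

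Of 11 T, NK and innate lymphoid genes tested, 2 rose and 0 fell. Gata3, the T helper and innate lymphoid factor that Ebf1 is known to repress in pro-B cells, was at 8.62 and 8.63 with Ebf1 shRNA, against 6.72 and 6.32 with scramble shRNA (2.11 ± 0.15, limma adjusted p = 0.000969). Id2, an inhibitor of E proteins that Ebf1 is also known to repress, was at 9.05 and 8.97, against 7.21 and 7.20 (1.80 ± 0.10, limma adjusted p = 0.000484). For both genes the arrays within a group lay close together and the groups far apart. In the arrays labelled Pou2af1 shRNA, where the chosen Ebf1 probe set overlapped scramble, mean Id2 was nearer to Ebf1 shRNA than to scramble. Mean Gata3 there was nearer to scramble. The part of lower Ebf1 in either rise was not tested. The remaining 9 were not called, among them Il2ra (−0.67), Bcl11b (−0.10), Cd3d (−0.09), Rora (0.43) and Notch1 (0.46). Tested on its own, 1 of 2 Notch1 probe sets rose. Among 9 early progenitor genes, 1 rose and 3 fell, beside 6.21% and 8.16% of all genes. The zinc finger repressor Gfi1 was at 8.55 and 8.59, against 9.66 and 9.63 (−1.08 ± 0.10), while Flt3 (−0.22) and Gata2 (0.22) were not called. Tal1 fell by 0.93, a call that ended without Ebf1 shRNA replicate 2 (−0.79), scramble replicate 1 (−0.92) or scramble replicate 2 (−0.94).

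**Figure D4:**
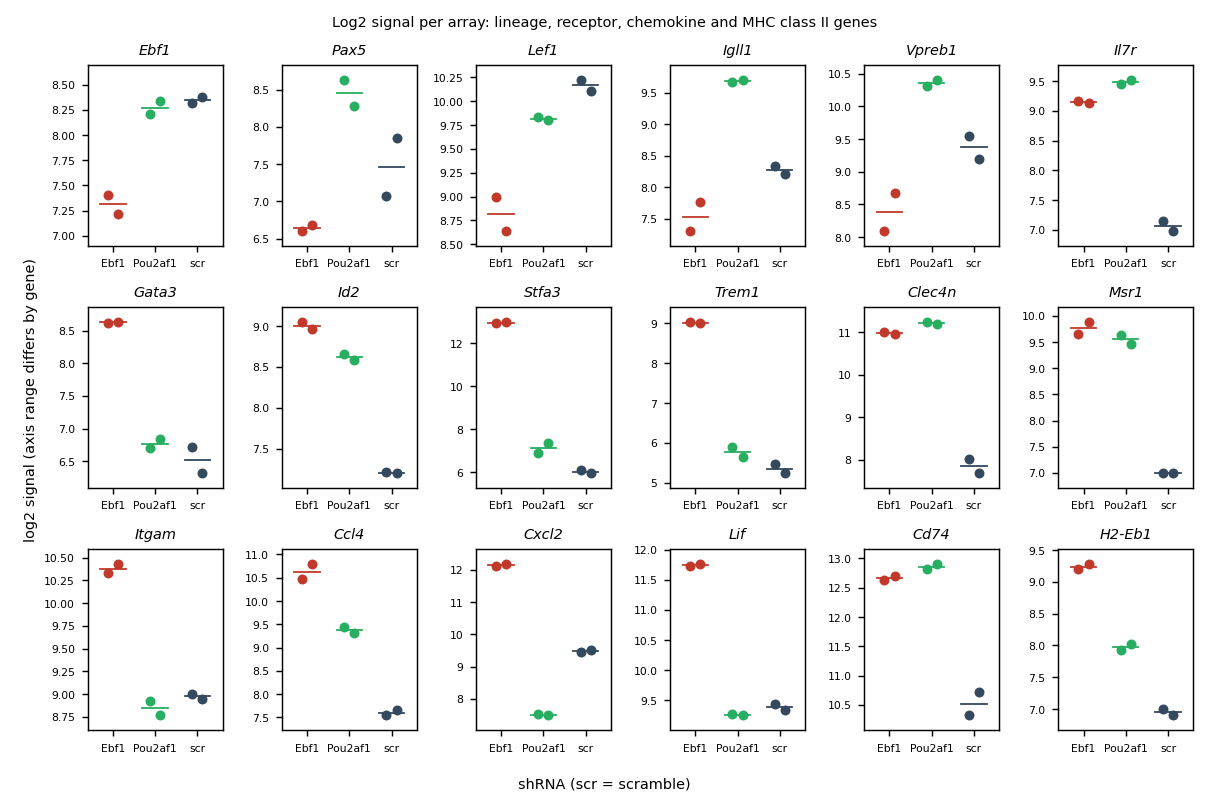
Log2 signal of 18 genes in each of 2 arrays per shRNA, with a line at each mean; axis ranges differ by gene. Ebf1 and Lef1 are lower and Gata3, Id2, Stfa3 and Cxcl2 higher in both Ebf1 shRNA arrays than in both scramble arrays, whereas the Pax5 scramble points lie at 7.08 and 7.85.

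Of 23 macrophage and myeloid transcription factor genes, 5 rose and 2 fell, with a median of 0.09 that turned to −0.05 without scramble replicate 1. Besides Id2, Bhlhe40, a repressor that supports inflammatory macrophages, was at 10.38 and 10.37 with Ebf1 shRNA, against 8.65 and 8.41 with scramble shRNA (1.85 ± 0.12). Tfec, a macrophage-restricted factor, was at 11.25 and 11.23, against 10.02 and 10.11, and rose by 1.18 ± 0.10. All Ebf1 shRNA arrays were above all scramble arrays for both. Hif1a, the oxygen-regulated factor, rose by 0.86 ± 0.11, and Cebpb, a C/EBP family member of myeloid cells, by 0.70 ± 0.10. Irf8 fell, as given above, and so did the stress-induced repressor gene Atf3, by 0.62. The Atf3 call ended without Ebf1 shRNA replicate 2 (−0.48), scramble replicate 1 (−0.57) or scramble replicate 2 (−0.67). Spi1, which encodes PU.1, stood at −0.21 and was not called. Neither were Batf3, Nr1h3, Maf, Egr1, Egr2, Id3, Stat3, Zeb2, Bhlhe41, Cebpd, Tfe3, Mitf, Tfeb, Irf5 and Runx1, at −0.43 to 0.41. The probe set of Cebpa stayed under the edge of background, at 4.48 and 4.42 against 3.92 and 3.97, and Klf4 at 3.68 and 3.82 against 3.88 and 3.81, so neither was tested. Whether the Cebpa probe set reads the fusion gene is not given in the sources used here.

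Among 29 macrophage surface receptors and markers, 14 rose and 2 fell, with a median of 0.43. Trem1, which amplifies inflammatory signalling, was at 9.03 and 9.01 with Ebf1 shRNA, against 5.48 and 5.24, under the edge of background, with scramble shRNA. Itgam, the CD11b integrin chain, was at 10.33 and 10.43, against 9.0 and 8.95 (1.41 ± 0.11), and the endosomal marker Cd68 at 12.71 and 12.74, against 10.95 and 11.26 (1.62 ± 0.13). The arrays did not overlap for these 3 genes, and Itgax, the CD11c chain (1.68), the inhibitory receptors Pirb (1.67) and Cd200r1 (1.84), the lipid receptor Cd36 (1.40) and the chemokine receptor Ccr2 (1.05) also rose. Csf1r, the receptor for CSF-1, was at 13.11 and 13.06, against 13.18 and 12.99, and the groups overlapped. The activating adaptors Tyrobp (0.06) and Fcer1g (0.05) were not called either. Cx3cr1, the fractalkine receptor, fell by 0.84 and Fcgr1, the high-affinity IgG receptor, by 0.76. The Cx3cr1 call ended without Ebf1 shRNA replicate 1 (−0.67), scramble replicate 1 (−0.90) or scramble replicate 2 (−0.78), and the Fcgr1 call without Ebf1 shRNA replicate 1 (−0.80), Ebf1 shRNA replicate 2 (−0.72) or scramble replicate 1 (−0.57). The count that rose was 9 without Ebf1 shRNA replicate 1, Ebf1 shRNA replicate 2 or scramble replicate 2 and 8 without scramble replicate 1.

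Of 17 C-type lectin and scavenger receptor genes, 6 rose and 0 fell, with a median of 0.48. The fungal pattern receptor Clec4n was at 11.00 and 10.96 with Ebf1 shRNA, against 8.02 and 7.69 with scramble shRNA (3.13 ± 0.13), and the scavenger receptor Msr1 at 9.65 and 9.88, against 7.0 and 7.0 (2.77 ± 0.12). Lgals3, a galectin of activated macrophages, was at 7.56 and 7.50, against 5.22 and 5.09, under the edge of background. These 3 genes had wide gaps between the groups, while the mannose receptor gene Mrc1 (0.76), Clec7a (0.40) and Marco (0.24) were not called. Increases numbered 5 without Ebf1 shRNA replicate 1 and 4 without Ebf1 shRNA replicate 2, scramble replicate 1 or scramble replicate 2. Of 10 osteoclast genes, 5 rose and 0 fell, with a median of 0.43. Carbonic anhydrase 2 (Car2), which acidifies the bone surface, was at 10.75 and 10.82, against 9.26 and 9.05, while the osteoclast enzymes Acp5 (−0.17) and Ctsk (0.40) were not called. The osteoclast count was 4, 4, 3 and 3 without Ebf1 shRNA replicate 1, Ebf1 shRNA replicate 2, scramble replicate 1 and scramble replicate 2. Markers of further lineages were called in few cases: 1 of 8 dendritic cell genes (Bst2) fell, 0 of 4 mast cell and basophil genes were called, and 1 of 4 stromal genes (Pecam1) fell. Bst2 changed by −0.79 and ended without Ebf1 shRNA replicate 1 (−0.62), scramble replicate 1 (−0.92) or scramble replicate 2 (−0.65), and Pecam1 changed by −0.80 and ended without scramble replicate 1 (−0.82) or 2 (−0.78).

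Neutrophil and granule genes were mostly higher with Ebf1 shRNA. Of 16 tested, 9 rose and 1 fell, with a median of 0.81. Beside Stfa3, the peptide receptor Fpr2 was at 10.57 and 10.42, against 7.46 and 6.65 (3.44 ± 0.25), and the secreted inhibitor-like gene Wfdc21 at 12.97 and 12.98, against 10.52 and 10.51 (2.46 ± 0.11). The gelatinase gene Mmp9 was at 9.25 and 9.11, against 7.03 and 7.09 (2.12 ± 0.19). All 3 were higher in each Ebf1 shRNA array, and the chitinase-like gene Chil1 (1.77), the collagenase gene Mmp8 (0.91) and Wfdc17 (0.91) rose too. Camp, the cathelicidin of secondary granules, went the other way, at 9.61 and 9.87 against 11.49 and 11.59 (−1.80 ± 0.12). The calprotectin genes S100a8 (0.27) and S100a9 (0.38) and the granule genes Lcn2 (0.00) and Ltf (−0.04) were not called. Mpo, Elane and Ngp, which define granulocyte precursors, stayed under the edge of background in all 4 arrays. Of 8 neutrophil markers with a probe set, 3 (Camp, S100a8 and S100a9) lay above it in both groups, and the summed signal on the log2 scale was 14.42 and 14.57 in the Ebf1 shRNA arrays, against 14.33 and 14.44 in the scramble arrays. Its part in the granule genes was not tested.

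Chemokine genes rose in part. Of 13 CC chemokine and receptor genes, 5 rose and 0 fell, with a median of 0.43, and of 8 CXC genes, 3 rose and 1 fell, with a median of 0.25. Ccl4 was at 10.48 and 10.78 with Ebf1 shRNA, against 7.54 and 7.65 with scramble shRNA (3.03 ± 0.13). Cxcl2, the main neutrophil attractant of mouse macrophages, was at 12.13 and 12.17, against 9.46 and 9.51 (2.66 ± 0.09, limma adjusted p = 0.000188), and its neighbour Cxcl3 at 12.46 and 12.17, against 10.02 and 10.10 (2.26 ± 0.13). None of these ranges overlapped, as was so for 59.9% of all genes tested. Pf4, made by platelets and macrophages, was at 10.20 and 10.31, against 6.99 and 6.78. Of 9 erythroid and megakaryocyte genes it alone was called, and Itga2b (0.12) and Gp9 (0.40) were not. Ccl7, a monocyte attractant, rose by 1.71, whereas Ccl2 (0.40), Ccl5 (0.68) and the interferon-induced Cxcl10 (−0.84 ± 0.22, limma adjusted p = 0.0534) were not called. Cxcl11, also induced by interferon, fell by 0.94 and lay under the edge of background with Ebf1 shRNA. That call ended without Ebf1 shRNA replicate 1 (−0.78) or scramble replicate 2 (−0.72). The CC count that rose was 4 without Ebf1 shRNA replicate 1, Ebf1 shRNA replicate 2 or scramble replicate 2 and 3 without scramble replicate 1.

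The NF-kappaB family drives many of these genes through a site of about 10 bases, and the windows of both CXC genes and of Il6 are shown because they held a strict form of it (GGGA, any base, TTTCC), found before 0.337% of all gene starts on either strand. It was held by 2 of 3 CXC genes that rose, 0 of 3 CC genes that rose, 1 of 5 cytokine genes that rose and 1 of 9 cytokine genes not called (Csf1). In the interferon signalling list, Tlr3, which fell, and Ifngr2, which was not called, held it. The site stood before 0.387% of the genes tested with a promoter, 4 of 606 that rose (0.66%) and 3 of 820 that fell (0.366%). They span chr5:90903729-90903898 (+) for Cxcl2, chr5:90785931-90786100 (+) for Cxcl3 and chr5:30012944-30013113 (+) for Il6, 170 bases each, with the match in capitals.
Cxcl2: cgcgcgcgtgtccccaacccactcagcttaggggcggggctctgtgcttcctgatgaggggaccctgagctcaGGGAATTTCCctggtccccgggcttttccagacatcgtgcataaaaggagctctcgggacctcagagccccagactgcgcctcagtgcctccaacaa
Cxcl3: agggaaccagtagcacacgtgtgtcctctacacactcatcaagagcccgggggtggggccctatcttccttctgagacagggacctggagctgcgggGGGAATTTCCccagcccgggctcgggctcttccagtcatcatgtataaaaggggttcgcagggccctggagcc
Il6: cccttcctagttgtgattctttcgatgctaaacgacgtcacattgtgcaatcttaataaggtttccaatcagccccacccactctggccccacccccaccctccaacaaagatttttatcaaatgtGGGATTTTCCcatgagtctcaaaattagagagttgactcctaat

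Of 20 cytokine and growth factor genes, 8 rose and 0 fell, with a median of 0.46. They included members of the interleukin 6 family. Lif, which acts through the gp130 receptor, was at 11.73 and 11.75 with Ebf1 shRNA, against 9.45 and 9.34 with scramble shRNA (2.35 ± 0.10). Its relative Osm was at 10.38 and 10.24, against 8.71 and 8.51 (1.70 ± 0.12), and Il6 at 8.40 and 8.21, against 6.98 and 7.0 (1.31 ± 0.11). All 3 were higher in each Ebf1 shRNA array. Il1f9, an interleukin 1 family member of barrier inflammation, was at 7.79 and 7.94, against 4.25 and 4.35, and Il23a at 6.23 and 6.31, against 4.62 and 4.58. Both were under the edge of background with scramble shRNA, so they could enter the count of the list only through arrays of another group. The vascular growth factor gene Vegfa rose by 0.95, a call that ended without scramble replicate 2 (0.84). The classical inflammatory genes Tnf (0.26) and Il1b (0.23) and the growth factor gene Csf1 (0.22) were not called. Those that rose numbered 7, 7, 6 and 5 without Ebf1 shRNA replicate 1, Ebf1 shRNA replicate 2, scramble replicate 1 and scramble replicate 2.

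Of 23 cytokine receptor genes, 5 rose and 2 fell, beside 6.21% and 8.16% of all genes. The receptor gene Il4ra rose by 0.70 ± 0.10, Il10ra by 0.95 and Lifr by 0.81, while Il6st, the shared gp130 chain, stood at 0.05 and Il3ra at 0.01. The Il10ra call ended without scramble replicate 1 (0.86) or the probe sets shared between transcripts (0.40), and the Lifr call without Ebf1 shRNA replicate 1 (0.66), scramble replicate 1 (0.87) or scramble replicate 2 (0.75). The receptor count that rose was 2, 3, 1 and 2 without Ebf1 shRNA replicate 1, Ebf1 shRNA replicate 2, scramble replicate 1 and scramble replicate 2. Of 22 genes of NF-kappaB subunits, inhibitors and targets, 5 rose and 1 fell, with a median of 0.23, and 0 of the 6 calls survived the loss of every array. Traf1, a signalling adaptor, rose by 1.41 and ended without Ebf1 shRNA replicate 1 (1.27), and Bcl3, a nuclear cofactor, rose by 1.30 and ended without Ebf1 shRNA replicate 1 (1.07), scramble replicate 1 (1.17) or scramble replicate 2 (1.43). The subunits Rela (−0.03), Rel (0.05), Relb (0.24) and Nfkb2 (0.26) and the inhibitor Tnfaip3 (−0.55) were not called.

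Of 19 Toll-like receptor and adaptor genes, 5 rose and 1 fell. Tlr13, a mouse sensor of bacterial ribosomal RNA, was at 8.60 and 8.67 with Ebf1 shRNA, against 7.32 and 7.35 with scramble shRNA (1.30 ± 0.09). Tlr7 was at 8.99 and 9.07, against 8.29 and 8.17. Both genes were higher in each Ebf1 shRNA array. The surface receptor Tlr1 rose by 0.99, the DNA receptor Tlr9 by 0.51 and the coreceptor Cd14 by 0.42, and the double-stranded RNA receptor Tlr3 fell by 0.44. Tlr1 ended without Ebf1 shRNA replicate 1 (1.02), Ebf1 shRNA replicate 2 (0.96) or scramble replicate 2 (0.74). The calls of the other 3 ended without any 1 array, with values of 0.41 to 0.62 for Tlr9, 0.38 to 0.47 for Cd14 and −0.45 to −0.43 for Tlr3. Tlr2 (0.04), Tlr4 (0.07) and the adaptors Myd88 (−0.39) and Ticam1 (0.28) were not called. The count that rose was 2 without either Ebf1 shRNA array and 3 without either scramble array. Of 13 inflammasome genes, 2 rose and 1 fell, beside 6.21% and 8.16% of all genes. Nlrp3, the sensor of cell damage, rose by 0.96, a call that ended without scramble replicate 1 (0.95) or 2 (0.97). Casp1, the protease that cuts interleukin 1 beta, fell by 0.71, a call that ended without Ebf1 shRNA replicate 1 (−0.68), Ebf1 shRNA replicate 2 (−0.74) or scramble replicate 1 (−0.56). The inflammasome count that rose was 1, 2, 0 and 1 without Ebf1 shRNA replicate 1, Ebf1 shRNA replicate 2, scramble replicate 1 and scramble replicate 2. The sensor gene Aim2 (0.07) was not called, nor was the adaptor gene Pycard (−0.16), although 2 of its 3 probe sets fell when each was tested on its own (lowest value −0.59).

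Integrin and adhesion genes moved in both directions, with more increases. Of 20 tested, 11 rose and 2 fell, with a median of 0.49. Itga4, the alpha 4 chain by which pre-B cells hold on to stroma, was at 7.43 and 7.73 with Ebf1 shRNA, against 9.49 and 9.21 with scramble shRNA (−1.77 ± 0.15, limma adjusted p = 0.00156). The laminin-binding chain Itga6 was at 11.02 and 10.85, against 9.57 and 9.41 (1.44 ± 0.12). For both, the gap between groups was far wider than within them. Itga8, which was outside the list, was at 8.31 and 8.21, against 5.68 and 4.25, with the scramble arrays far apart. Icam2 fell by 0.95, while the shared chains Itgb1 (−0.18) and Itgb2 (0.29) and the hyaluronan receptor Cd44 (0.00) were not called. Itgb7 rose by 0.94 and ended without scramble replicate 1 (0.89), and Itgb3 rose by 0.98 and ended without scramble replicate 1 (0.99) or 2 (0.97) or with probe sets averaged (0.60). Increases numbered 6, 7, 4 and 5 without Ebf1 shRNA replicate 1, Ebf1 shRNA replicate 2, scramble replicate 1 and scramble replicate 2.

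Of 21 matrix protease and inhibitor genes, 8 rose and 1 fell, with a median of 0.35. F7 was at 10.22 and 10.24 with Ebf1 shRNA, against 6.84 and 6.94 with scramble shRNA (3.34 ± 0.10, limma adjusted p = 0.000176). The membrane collagenase Mmp14 was at 9.36 and 9.29, against 8.23 and 8.35 (1.04 ± 0.11), and the sheddase Adam8 at 12.47 and 12.46, against 11.49 and 11.46 (0.99 ± 0.10). All Ebf1 shRNA arrays lay above all scramble arrays here, and thrombospondin 1 (Thbs1) rose by as much (0.99). The urokinase gene Plau (−0.09), its receptor Plaur (0.19) and the macrophage elastase Mmp12 (−0.04) were not called. F10, the factor that F7 activates, rose by 0.84, a call that ended without Ebf1 shRNA replicate 1 (0.83), Ebf1 shRNA replicate 2 (0.85) or scramble replicate 2 (0.59). Serpinb1a, an inhibitor of neutrophil proteases, fell by 0.85, a call that ended without scramble replicate 1 (−0.82).

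Genes of cystine uptake, glutathione synthesis and the oxidant-responsive factor NRF2 were in part higher: of 22 tested, 10 rose and 0 fell, with a median of 0.25. Slc7a11, which imports cystine for glutathione, was at 7.17 and 7.60 with Ebf1 shRNA, against 3.85 and 3.26, under the edge of background, with scramble shRNA. It passed the filter through the Ebf1 shRNA arrays alone, so it could enter this count only as a rise. Srxn1, which repairs oxidised peroxiredoxins, was at 9.37 and 9.18, against 7.44 and 6.93 (2.09 ± 0.21). Gclm, the regulatory subunit of the rate-limiting enzyme of glutathione synthesis, was at 9.77 and 9.85, against 8.32 and 8.16 (1.57 ± 0.12). The groups were well apart for each gene, and the thioredoxin reductase gene Txnrd1 (1.21) and the heme oxygenase gene Hmox1 (0.90) rose as well. The catalytic subunit gene Gclc rose by 0.72, a call that ended without Ebf1 shRNA replicate 1 (0.68) or scramble replicate 2 (0.60), and Me1, which makes NADPH, by 1.03, a call that ended without scramble replicate 2 (0.91). Nqo1, often used as a marker of NRF2, stood at −0.19 and was not called, nor were Nfe2l2, which encodes NRF2 (0.05), its inhibitor Keap1 (−0.24) or Slc3a2, the partner chain of Slc7a11 (−0.35). Those that rose numbered 7, 9, 7 and 6 without Ebf1 shRNA replicate 1, Ebf1 shRNA replicate 2, scramble replicate 1 and scramble replicate 2.

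Slc7a11 is also a target of ATF4, the factor of the amino acid response, and its window is shown because it held 2 copies of the element TGATG, any base and AA, found before 3.53% of all gene starts. It spans chr3:50443614-50443783 (−), with matches in capitals (the second is on the other strand). Of the genes of amino acid supply and stress, 2 of 8 that fell (Asns and Atf3), 1 of 4 that rose (Chac1) and 1 of 11 not called (Herpud1) held the element. The element stood before 2.17% of the genes tested with a promoter, 2.31% of those that rose and 3.17% of those that fell.
Slc7a11: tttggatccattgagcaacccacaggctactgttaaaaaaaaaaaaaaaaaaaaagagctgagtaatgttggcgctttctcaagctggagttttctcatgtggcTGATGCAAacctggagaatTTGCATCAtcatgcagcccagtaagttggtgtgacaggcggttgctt

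Other genes of amino acid supply and endoplasmic reticulum stress mostly did not rise with Slc7a11. Of 27 tested, 4 rose and 11 fell, with a median of −0.35. Shmt2, the mitochondrial enzyme that takes a carbon from serine, was at 9.74 and 9.34 with Ebf1 shRNA, against 10.91 and 10.85 with scramble shRNA (−1.34 ± 0.15). Cth, which makes cysteine from cystathionine, was at 5.69 and 5.51, against 7.31 and 6.98 (−1.55 ± 0.15), and Asns, which makes asparagine, at 9.95 and 9.88, against 10.78 and 10.72 (−0.84 ± 0.10). These 3 fell in every fit with an array left out. The serine synthesis genes Phgdh and Psph fell by 0.74 each, while the step between them, Psat1, stood at 0.00. The Phgdh call ended without Ebf1 shRNA replicate 2 (−0.68) or scramble replicate 1 (−0.63) and the Psph call without scramble replicate 1 (−0.65). Stress genes went the other way in part: Trib3 rose by 0.51 and Chac1, which degrades glutathione, by 0.56, whereas Ddit3 (0.19), Atf4 (−0.15) and the chaperone Hspa5 (−0.17) were not called. Trib3 ended without any 1 of the 4 arrays (0.46 and 0.55 without an Ebf1 shRNA array, 0.56 and 0.45 without a scramble array), as did Chac1 (0.50, 0.61, 0.51 and 0.61 in the same order). The count that rose was 1, 1, 0 and 1, and the count that fell 9, 4, 3 and 5, without Ebf1 shRNA replicate 1, Ebf1 shRNA replicate 2, scramble replicate 1 and scramble replicate 2.

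Of 19 glycolysis and hypoxia genes, 7 rose and 1 fell, with a median of 0.30. Hk3, the hexokinase of myeloid cells, was at 11.56 and 11.45 with Ebf1 shRNA, against 8.87 and 9.0 with scramble shRNA (2.57 ± 0.11), and Pdk1, which keeps pyruvate out of mitochondria, rose by 0.90 ± 0.10. The neuronal-type glucose transporter Slc2a3 was at 8.61 and 8.62, against 9.34 and 9.48, and fell by 0.80. Hk3 is the wide difference here, and Hk2 (−0.13), Slc2a1 (0.30), Ldha (0.27) and Pkm (0.04) were not called, although 2 of the 3 Slc2a1 probe sets rose when each was tested on its own (highest value 0.71). Leaving out any of the 4 arrays left 2 of the 7 increases, Hk3 and Pdk1. Of 23 cathepsin and lysosomal genes, 2 rose and 2 fell, close to the shares of all genes tested (6.21% and 8.16%). Ctsl, a cysteine protease of the lysosome, was at 12.09 and 12.17, against 10.30 and 10.13 (1.92 ± 0.12), and Ctse, an aspartic protease, at 11.54 and 11.53, against 12.31 and 12.25 (−0.75 ± 0.09). Both separated the groups, but Ctsb (−0.14), Ctsd (−0.01), Ctss (0.06) and Lamp1 (−0.16) were not called. None of 9 phagocyte oxidase and nitric oxide genes was called, with all of them between −0.25 and 0.27. Of 19 lipid genes, Cd36 rose and Apoe fell by 0.51, and of 8 housekeeping genes, the glycolytic Pgk1 alone rose, by 0.47. Neither of the calls of Apoe and Pgk1 survived the loss of an array, with values of −0.56 to −0.46 for Apoe and 0.43 to 0.51 for Pgk1.

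**Figure D5:**
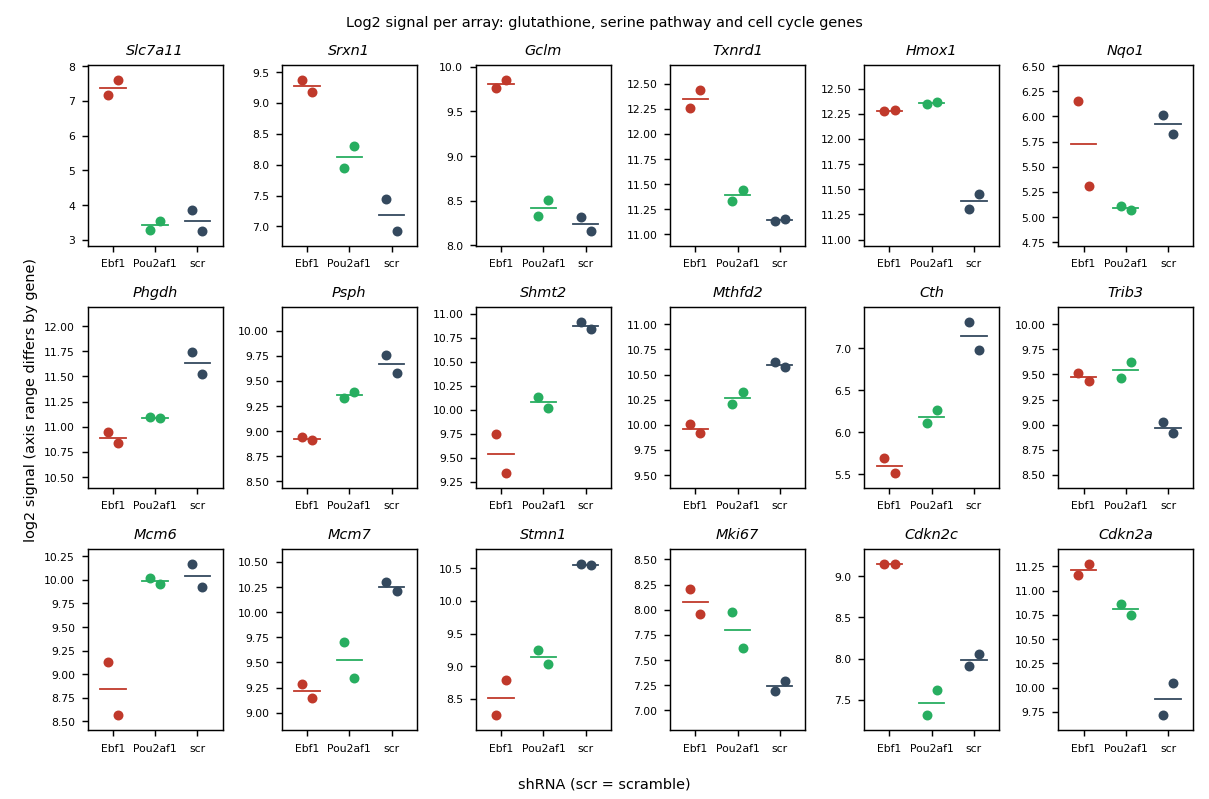
Log2 signal of 18 genes in each of 2 arrays per shRNA, with a line at each mean; axis ranges differ by gene. Slc7a11, Srxn1, Gclm and Cdkn2c are higher and Shmt2, Cth, Mcm7 and Stmn1 lower in both Ebf1 shRNA arrays than in both scramble arrays, whereas Nqo1 overlaps.

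Genes of DNA replication and mitosis were in part lower. Of 35 tested, 1 rose and 9 fell, with a median of −0.22. Stmn1, which destabilises microtubules and is high in dividing cells, was at 8.25 and 8.79 with Ebf1 shRNA, against 10.56 and 10.55 with scramble shRNA (−2.03 ± 0.19, limma adjusted p = 0.00215). The helicase subunit genes Mcm6 and Mcm7 were at 9.13 and 8.56, against 10.16 and 9.93, and at 9.29 and 9.15, against 10.30 and 10.21. Both fell (−1.20 and −1.04), with no overlap, as did Mcm3 (−0.78). The proliferation antigen Mki67 moved against them, at 8.21 and 7.95 against 7.19 and 7.29 (0.84 ± 0.16), and Cdk1 (0.15), Top2a (−0.43), Rrm2 (0.48) and Plk1 (−0.18) were not called. The Mcm6 call ended without scramble replicate 1 (−1.08) or 2 (−1.32) and the Mcm7 call likewise (−0.99 and −1.08). Mcm3 ended without Ebf1 shRNA replicate 1 (−0.78), Ebf1 shRNA replicate 2 (−0.78) or scramble replicate 1 (−0.63), and Mki67 without Ebf1 shRNA replicate 1 (0.71), scramble replicate 1 (0.79) or scramble replicate 2 (0.89). Decreases numbered 5, 7, 2 and 3 without Ebf1 shRNA replicate 1, Ebf1 shRNA replicate 2, scramble replicate 1 and scramble replicate 2.

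Of 23 genes of CDK inhibitors, D cyclins and p53 targets, 6 rose and 2 fell. The inhibitors of CDK4 and CDK6 rose: Cdkn2c was at 9.14 and 9.14 with Ebf1 shRNA, against 7.91 and 8.05 with scramble shRNA (1.16 ± 0.13). Cdkn2a was at 11.17 and 11.27, against 9.71 and 10.05 (1.34 ± 0.14), and Cdkn2b at 11.16 and 11.05, against 10.21 and 10.23 (0.88 ± 0.10). Every Ebf1 shRNA array was above every scramble array for the 3 genes, whereas Cdkn2d (0.37), Cdkn1b (0.01) and the cyclin gene Ccnd1 (0.10) were not called. Pmaip1, which encodes the death protein Noxa, was at 7.93 and 7.96, against 9.55 and 9.41 (−1.54 ± 0.10). Increases numbered 4 without Ebf1 shRNA replicate 1 and 3 without Ebf1 shRNA replicate 2, scramble replicate 1 or scramble replicate 2. Of 12 apoptosis genes, 2 fell and 0 rose, among them Bmf, at 7.47 and 7.69 against 8.95 and 9.01 (−1.40 ± 0.12), a call that ended at −0.36 when probe sets shared between transcripts were left out. Of the 3 Bmf probe sets, 1 fell on its own, and they ranged from −1.40 to 0.35. Bcl2l11, which encodes the death protein Bim, was not called by its chosen probe set (0.42), but 4 of its 5 probe sets rose on their own, with values up to 1.30, and it was called at 0.87 with probe sets averaged. Bcl2 (0.16) and Mcl1 (−0.01) were not called, although 1 of 4 Bcl2 probe sets rose on its own.

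Of 19 MYC family and ribosome biogenesis genes, 2 rose and 6 fell, with a median of −0.20. Mxd1, an antagonist of MYC, was at 11.58 and 11.59 with Ebf1 shRNA, against 10.39 and 10.63 with scramble shRNA (1.07 ± 0.11), and Cad, the enzyme that starts pyrimidine synthesis, at 8.07 and 8.02, against 9.21 and 9.11 (−1.11 ± 0.12). Myc itself stood at −0.13 and Npm1 at −0.23, neither called. The count that fell was 1, 2, 1 and 1 without Ebf1 shRNA replicate 1, Ebf1 shRNA replicate 2, scramble replicate 1 and scramble replicate 2. Of 27 MAP kinase feedback and immediate early genes, 6 rose and 3 fell. Dusp5, a phosphatase of nuclear ERK, was at 10.93 and 10.60, against 8.56 and 8.86 (2.06 ± 0.16), and Spry4, an inhibitor of receptor signalling, rose by 0.87 ± 0.11. Fos (−0.01), Jun (0.05), Dusp1 (0.09) and Dusp6 (0.11) were not called. Those that rose numbered 3, 3, 3 and 2, and the count that fell 0, 0, 0 and 0, without Ebf1 shRNA replicate 1, Ebf1 shRNA replicate 2, scramble replicate 1 and scramble replicate 2.

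A palindromic EBF element (TCCC, 2 bases of any kind, GGGA) stood before 0.788% of all gene starts and 0.902% of the genes tested with a promoter. It stood before 9 of 606 genes that rose (1.49%) and before 5 of 820 that fell (0.61%). Both shares are small, and windows of 250 bases hold none of a gene's distal elements.

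The arrays labelled Pou2af1 shRNA came from converted C10 cells with another shRNA, and setting Ebf1 shRNA against them asks which levels differ between 2 shRNA groups. The differences use no scramble level, but the model's estimate of spread does. Both comparisons use the same Ebf1 shRNA arrays, so this one does not repeat the first independently. The target of that shRNA read 11.30 ± 0.06 there, against 11.16 ± 0.14 with scramble shRNA (SD, n = 2 each). Pou2af1 RNA was thus not lower in the arrays that carry its label, which are named by that label here. Of 12484 genes, 886 were higher and 1162 lower with Ebf1 shRNA, together 16.4% (7.1% higher and 9.31% lower), and 1697 were called when the 4 arrays of these 2 shRNA groups were fitted alone. Ebf1 itself was lower with its own shRNA, with a difference of −0.96 (limma adjusted p = 0.00344).

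Interferon-induced genes were mostly lower with Ebf1 shRNA than in the arrays labelled Pou2af1 shRNA. Of 25 antiviral effectors, 1 was higher and 19 lower, and of 16 GTPase and Schlafen genes, 2 were higher and 13 lower. Ifit3 was at 8.59 and 8.40 with Ebf1 shRNA and averaged 12.25 in the arrays labelled Pou2af1 shRNA, a difference of −3.76. The scramble mean was 9.94, so the arrays labelled Pou2af1 shRNA were themselves 2.31 above scramble for this gene. The surrogate light chain genes differed in the same direction, Igll1 by −2.16 and Vpreb1 by −1.98, and Pax5 by −1.81, all of them called, with Igll1 at −0.82 when shared probe sets were left out. Here too the arrays labelled Pou2af1 shRNA stood above scramble, by 1.42 for Igll1 and by 0.99 for Vpreb1 and Pax5. Their summed B cell marker signal was 13.55 and 13.58, against 12.89 and 12.98 with scramble shRNA. Of the 20 genes of pre-B and B cell receptor signalling, 4 were higher and 7 lower. Gata3 was higher by 1.85, Stfa3 by 5.83 and Cxcl2 by 4.64 (Cxcl2 was 1.97 lower in the arrays labelled Pou2af1 shRNA than with scramble shRNA), and of 16 granule genes 9 were higher and 2 lower. Of 20 cytokine genes, 9 were higher and 2 lower, and of 22 genes of the NRF2 list, 6 were higher and 2 lower. Macrophage surface genes were divided, with 6 of 29 higher and 8 lower. So were CC chemokine genes (3 of 13 higher and 5 lower), class II genes (2 of 10 and 2) and Toll-like receptor genes (1 of 19 and 2). Of 14 p200, Ms4a and related genes, 1 was higher and 10 lower, and of 19 MYC and ribosome genes, 2 were higher and 0 lower. Integrin genes (7 of 20 higher and 3 lower), matrix protease genes (8 of 21 and 2) and glycolysis genes (9 of 19 and 1) had more increases. Id2 (8.62), Il7r (9.48), Cd74 (12.86) and Clec4n (11.20) had mean levels in the arrays labelled Pou2af1 shRNA that were nearer to those with Ebf1 shRNA than to the scramble levels, while Gata3 (6.77), Stfa3 (7.14), Slc7a11 (3.42) and Lif (9.26) were nearer to scramble.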

How the data were processed

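The 4 arrays of Ebf1 shRNA and scramble macrophages were analysed with the 2 arrays labelled Pou2af1 shRNA. Per the submitters' processing notes, the authors used RMA (version not given in the sources used here), and the deposited numbers are log2 signals for 45101 probe sets. Names came from the platform annotation, checked against RefSeq GRCm38.p6: 34945 probe sets had 1 symbol, and 932 with several and 9160 with none named no gene. For each of 18193 genes the probe set with the highest average signal in the 25 arrays was used. Tests covered the 12484 genes above their array's 40th percentile in at least 2 of 6 arrays. RMA brings arrays to a common distribution, so levels are relative to the other RNA of a sample, and a group under that percentile gives only a limited fold change.

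The 3 groups entered a linear model with 3 residual degrees of freedom (limma 3.58.1, R 4.3.3, lmFit with eBayes). The 2 comparisons described here used two-sided Benjamini-Hochberg adjustment over all genes of each. The same fit also compared the arrays labelled Pou2af1 shRNA with scramble, and 1490 of 12484 genes were called (848 higher and 642 lower). From that comparison only differences of single genes are quoted. Named genes were Ebf1, the 20 highest and 20 lowest log2 fold changes among called genes whose groups did not overlap (clone-style symbols passed over), and members of 41 gene lists. From a list, called members came first by size, with at least 1 uncalled member. The members and lists were chosen with earlier results of these data known, so list counts are descriptions. Probe set agreement was counted over list members together with the 20 highest and 20 lowest genes. Among 120 called genes with more than 1 tested probe set, 114 had all of them in 1 direction. Among 212 uncalled ones, 23 had at least 1 probe set called on its own.

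Promoters were read from a RefSeq table, using 250 bases before the first listed start of a gene. Plots were made in Python 3.11.15 (matplotlib 3.10.9). The model was tested on simulated data. Array values carry no read counts, and precision is limited by the number of arrays. Alternatives covered filter, probe set choice, normalization, variance model, minimum change, arrays in the model, each array left out in turn and the replicate number as a block. Testing every probe set on its own was added after seeing the data.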

Additional observations from a re-analysis of the deposited data

How the results depend on the processing

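The 1794 genes called between Ebf1 shRNA and scramble became 1120 with no filter, 2856 with a variance trend and robust fitting, 236 with a minimum log2 change of 0.5 and 475 with all 25 arrays in 1 model. Leaving out an array gave 492 to 852. The other settings stayed within 1.5 times, at 1240 to 2603. Between Ebf1 shRNA and the arrays labelled Pou2af1 shRNA, the 2048 calls became 417 with the minimum change, 720 with all 25 arrays and 3253 with every probe set tested on its own, and 905 to 1327 with an array left out. The cause of these moves was not tested, except that a minimum change calls fewer genes by construction. Quantile normalization repeated over the 6 arrays split the Ebf1 calls into 820 higher and 811 lower.

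With the replicate block, 1413 genes were called between Ebf1 shRNA and scramble (635 higher and 778 lower) and 1838 between the shRNA groups. The deviations of same-numbered arrays from their group means correlated at 0.05, 0.01 and 0.01 over genes, which is too little for a number to pair arrays.

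No named gene that was called changed direction under any setting. Of 306 named values, 14 lost their call with no filter, 79 with the minimum change, 83 with all 25 arrays and 12 with only the 4 arrays of the comparison. Leaving out probe sets shared between transcripts ended the calls of Bmf (−0.36), Ets1 (0.50), Igll1 (−0.29), Il10ra (0.40), Mcm3 (−0.53), Tlr3 (−0.36) and Trib3 (0.36). Averaging probe sets ended those of Igll1 (−0.52), Itgb3 (0.60) and Slfn1 (0.28), and centring arrays those of Cd72 (−0.47), Ifnb1 (−0.48) and Tlr3 (−0.36). A group near background gives a fold limited by the probe set's own background, and 2 arrays per group limit every call.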
